A study of Mus musculus with 26 samples.

Results

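CpG-sparse windows methylated in sperm are stretches of 1000 bp on the autosomes in which RRBS gave few usable CpG positions and in which nearly every read was methylated. A position counted when it had at least 10 reads in each of the 20 offspring libraries, and a window was a member when it held 1 to 5 such positions and a methylation level of 80% or more. The level was the methylated reads over all reads of the window, averaged over the 20 mice. The members were thus selected on measured values, and their high level in the offspring is a description and not a finding. The rule gave 55933 windows, which was 52.8% of the 106004 autosomal windows and 65.7% of the 85164 autosomal windows with 1 to 5 positions. Sparse refers to the number of positions covered and not to the number of CpGs in the genome, since RRBS reads only the ends of short fragments.

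Cytosine methylation in mammals is found mainly at CpG dinucleotides. In mature sperm most of the genome carries it, whereas CpG islands at gene starts, the dense clusters of CpGs that many housekeeping and germline genes begin in, are kept free of it. The pattern is rebuilt in male germ cells before birth, after the earlier marks have been erased, and is then maintained through the divisions of the spermatogonial stem cells. In RRBS the DNA is cut with MspI, an enzyme that recognises CCGG, and bisulfite converts unmethylated but not methylated cytosines. CpG-rich DNA is therefore enriched, and a CpG-poor stretch is seen only where it has a cut site.

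Epididymal sperm of 26 male mice was measured. The SSCT F0 group held 3 infertile W/W-v males on the WBB6F1/J background that had received cultured spermatogonial stem cells of neonatal DBA/2J mice, so that their sperm was of DBA/2J origin but matured in a testis of another strain, and their controls, the control F0 group, were 3 DBA/2J males, with all F0 mice being 16 to 18 months old. The offspring were 3 months old and comprised 5 control F1 males, 5 SSCT F1 males fathered by the transplanted mice, 5 SSCT F2/M males from SSCT F1 mothers and 5 SSCT F2/P males from SSCT F1 fathers, each F2 line having a control mouse as its other parent. The labels give DBA/2J as the strain of every sample. They also state that library preparation started from less than the usual 100 ng of DNA in the 3 SSCT F0 samples and in no others, so that low input and transplantation cannot be told apart in the F0 comparison.

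The offspring names need care. Groups follow the sample titles here. The clustering figure of the study gives other names to the same 4 sets of 5 libraries, a further naming exchanges SSCT F2/M and SSCT F2/P of that figure, and the treatment label marks the SSCT F2/M libraries as wild type. The set called control F1 here is called SSCT F2/M in that figure, the set called SSCT F1 is called SSCT F2/P, the set called SSCT F2/M is called control F1 and the set called SSCT F2/P is called SSCT F1. The members do not depend on the names, because their rule averages all 20 offspring. Reads at CpG positions numbered 45616751 to 87707577 per library. The spiked methylated control read 98.2 to 98.9% methylated and the unmethylated control 0.542 to 1.26%.

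The promoters of a few member genes are shown in sequence, although a gene start lay in only 1.18% of members. Promoters are those of RefSeq on GRCm38.p6, 250 bases before to 50 bases after a gene start, and capitals mark the CpGs whose methylation was measured. The 61916 positions checked inside RefSeq promoters, which are not all those deposited, each lay on a CpG of the promoter. The following 4 promoters lie in member windows and were chosen by the number of covered positions. Gm52172, a lncRNA gene (chr15:83836213-83836512, minus strand), had 17 CpGs in the promoter, 5 of them measured. Trp73, which encodes the p53 relative p73 (chr4:154097124-154097423, minus strand), had 6, of which 4 were measured. Tmem150b, a transmembrane protein gene (chr7:4725202-4725501, minus strand), had 6, of which 4 were measured, and all 4 CpGs of Depp1 (chr6:116650434-116650733, plus strand) were measured.
Gm52172: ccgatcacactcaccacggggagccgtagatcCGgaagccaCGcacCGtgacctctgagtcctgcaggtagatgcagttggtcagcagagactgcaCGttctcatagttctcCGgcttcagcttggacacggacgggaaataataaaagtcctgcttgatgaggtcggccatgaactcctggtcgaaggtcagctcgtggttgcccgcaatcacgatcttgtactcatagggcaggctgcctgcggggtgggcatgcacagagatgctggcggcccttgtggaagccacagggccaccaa
Trp73: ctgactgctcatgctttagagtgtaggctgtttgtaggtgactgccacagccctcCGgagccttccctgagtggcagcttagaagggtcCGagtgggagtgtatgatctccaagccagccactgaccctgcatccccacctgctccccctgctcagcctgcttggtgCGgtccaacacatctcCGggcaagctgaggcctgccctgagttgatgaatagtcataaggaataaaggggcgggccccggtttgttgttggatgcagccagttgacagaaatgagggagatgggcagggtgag
Tmem150b: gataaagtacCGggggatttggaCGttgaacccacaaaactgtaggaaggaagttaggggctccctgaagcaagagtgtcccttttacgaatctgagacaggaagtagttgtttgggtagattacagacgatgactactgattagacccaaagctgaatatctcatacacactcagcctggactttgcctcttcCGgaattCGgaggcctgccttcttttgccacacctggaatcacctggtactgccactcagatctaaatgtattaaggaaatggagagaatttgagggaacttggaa
Depp1: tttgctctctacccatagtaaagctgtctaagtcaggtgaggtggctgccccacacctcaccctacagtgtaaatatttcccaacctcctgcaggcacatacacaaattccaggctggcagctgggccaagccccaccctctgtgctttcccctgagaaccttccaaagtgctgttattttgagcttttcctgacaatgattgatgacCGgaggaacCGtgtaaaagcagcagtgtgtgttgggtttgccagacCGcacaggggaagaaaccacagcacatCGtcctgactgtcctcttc

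The window of Gm52172 was methylated at 96.7% ± 3.63 (SD, n = 20 offspring), with a lowest mouse of 86.4% and a highest of 100%. The Trp73 window was at 97.4% ± 3.00 (lowest mouse 91.5%), that of Tmem150b at 97.5% ± 3.00 (lowest mouse 90.5%) and that of Depp1 at 95.1% ± 4.06 (lowest mouse 83.6%). Between 70 and 570 reads per mouse stood behind these levels and behind those of the 2 further lncRNA genes the rule named, Gm46590 at 98.0% ± 2.45 and Gm36875 at 98.5% ± 2.08. By group the Trp73 window was at 98.1% in control F1, 96.7% in SSCT F1, 98.1% for SSCT F2/M, then 96.7% for SSCT F2/P, differences smaller than the SD between mice.

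The same number of covered CpGs was also found in unmethylated windows, and 2 such promoters are shown for contrast. Slc29a3, a nucleoside transporter gene (chr10:60752733-60753032, minus strand), had 18 CpGs, and Rad54l, a gene of homologous recombination repair (chr4:116123641-116123940, minus strand), had 13. In each, 5 CpGs were measured. The Slc29a3 window was methylated at 1.22% ± 1.09 and the Rad54l window at 0.838% ± 0.906 (SD, n = 20).
Slc29a3: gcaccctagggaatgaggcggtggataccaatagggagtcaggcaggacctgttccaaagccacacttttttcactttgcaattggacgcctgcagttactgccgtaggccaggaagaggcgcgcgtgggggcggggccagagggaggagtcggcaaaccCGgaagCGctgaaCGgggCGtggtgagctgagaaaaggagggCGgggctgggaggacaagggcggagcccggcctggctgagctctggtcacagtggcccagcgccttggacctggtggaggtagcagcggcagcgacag
Rad54l: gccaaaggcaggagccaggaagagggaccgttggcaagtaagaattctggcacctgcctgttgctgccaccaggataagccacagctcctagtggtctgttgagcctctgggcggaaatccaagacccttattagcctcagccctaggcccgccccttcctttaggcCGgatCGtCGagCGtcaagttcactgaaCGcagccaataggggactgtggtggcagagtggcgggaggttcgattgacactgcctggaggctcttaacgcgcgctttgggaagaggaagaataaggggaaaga

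Some members overlap microRNA hairpins. Of 1005 RefSeq hairpins, 49 held a covered position and 7 of these lay in member windows, namely Mir149, Mir194-1, Mir711, Mir873a, Mir873b, Mir6962 and Mir6968. Mir149 (chr1:92850378-92850443, plus strand) and Mir194-1 (chr1:185313319-185313385, plus strand) are printed below as RNA, with the letters of the measured CpGs in capitals.
Mir149: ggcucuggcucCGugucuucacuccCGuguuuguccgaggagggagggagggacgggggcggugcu
Mir194-1: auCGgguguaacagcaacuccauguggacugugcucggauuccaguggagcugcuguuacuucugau

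The 2 measured CpGs of Mir149 were methylated at 92.2% ± 7.1 and ranged from 80.6 to 100% over the offspring. The single measured CpG of Mir194-1 was at 97.2% ± 8.79 with a lowest mouse of 68.3%. Mir873a and Mir873b are hairpins of opposite strands over the same bases, and their shared CpG was the most variable of the set at 80.6% ± 24.1, from 10.0% to 100%, on 10 to 80 reads per mouse. Its group means were 91.3% in control F1, 82.8% in SSCT F1, 88.0% for SSCT F2/M, then 60.1% for SSCT F2/P, a difference that was not tested, since the locus was singled out for its spread.

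Members were not an even sample of methylation levels. The windows with 1 to 5 positions fell into 3 classes, with 55933 members, 17345 windows (20.4%) at 20% or less and 11886 windows (13.96%) in between. The median member was at 97.9%, the quartiles at 96.3 and 98.7%, and 5% of members lay below 87.3%. A level of 95% or more was found in 82.7% of members, and 1302 members had no unmethylated read in any mouse. Only 1790 members lay between 80 and 85%, and 1449 windows of the same size lay just outside the limit, between 75 and 80%. The 2 members nearest to the limit were at 80.0073 and 80.0079%, an intergenic window on chromosome 11 (39881001 to 39882000) with an SD of 13.8 over the mice, and a window in the catenin gene Ctnna3 on chromosome 10 (63761001 to 63762000) with an SD of 11.7. Of the 2 windows nearest to the limit on its other side, at 79.9975 and 79.9959%, the first was in the calcium sensor gene Doc2a on chromosome 7 (126846001 to 126847000) with an SD of 10.1.

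**Figure D1:**
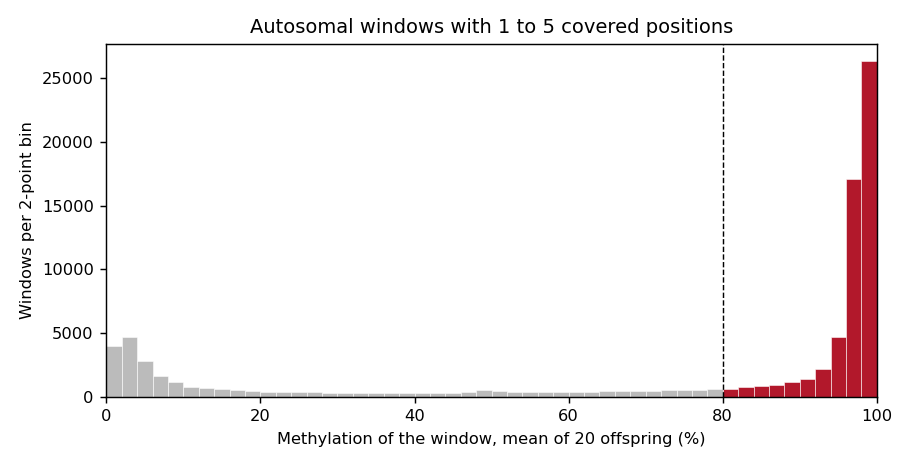
Number of autosomal windows with 1 to 5 covered positions (y axis, per bin of 2 percentage points) against their methylation, the mean of 20 offspring (x axis, %). Red bars are members at 80% or more and the dashed line marks 80%; the highest bar, 98 to 100%, holds 26365 windows.

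Most members rested on few positions. There were 24048 members with 1 position, 17379 with 2, 7611 with 3, 4917 with 4 and 1978 with 5, and together they held 111197 of the 460464 positions kept. Membership became rarer as positions were added, from 75.5% of windows with 1 position to 39.4% of windows with 5. The median level hardly moved, 98.0% with 1 position and 97.6% with 5. In the 31885 members with 2 or more positions, the positions spanned a median of 45 bases and differed by a median of 2.07 percentage points. For 3697 CpGs of members both strands were covered inside the window, and the strands differed by a median of 1.22 points.

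Mice differed more than read counting gives. The median SD of a member over the 20 offspring was 4.02 percentage points, against 1.62 points if the spread came from counting reads alone. The SD was 5.11 points in members with 1 position and 2.71 points in members with 5, whose median depth was 46 and 236 reads per mouse. In 37938 members (67.8%) every mouse was at 80% or more. In 1801 members at least 1 mouse was below 50%, and in 1587 of them it was a single mouse. Of these 1801, 80.2% had only 1 position. PCR copies of a molecule were not separated in these reads, so the counting error is a lower bound of the error of measurement.

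The 3 members with the largest SD each held at least 1 mouse with no methylated read. A window near C330004P14Rik on chromosome 10 (16050001 to 16051000) was at 80.3% ± 32.1 (SD, n = 20), a window in Nxpe3 on chromosome 16 (55896001 to 55897000) at 83.6% ± 32.0 and a window in Irf2, an interferon regulatory factor gene, on chromosome 8 (46809001 to 46810000) at 82.9% ± 31.5. Each had 1 position. In Nxpe3, 0 of 17 reads were methylated in control F1 replicate 4 and 0 of 10 in SSCT F1 replicate 5, which allows up to 17.6% and 30%, whereas the other mice ranged from 52.4 to 100%. In Irf2, control F1 replicate 3 had 0 of 10 reads methylated, which allows up to 30%, and control F1 replicate 4 had 19.05% of 42 reads, against 100% in the other 3 control F1 mice. In the window near C330004P14Rik the mice at 0 were SSCT F2/M replicate 2 (13 reads, which allows up to 23.1%) and SSCT F2/P replicate 4 (19 reads, up to 15.8%), so that no group held the low mice of all 3 windows.

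Members stood away from gene starts. A RefSeq gene start lay in 1.18% of members, against 15.9% of CpG-sparse windows at 20% or less, 42.8% of windows with 6 or more positions at 20% or less and 10.3% of all autosomal windows. Methylated windows with 6 or more positions (1.32%) and sparse windows between 20 and 80% (2.35%) also seldom held one, so that the trait was shared with them. The median distance of members to a gene start was 25.3 kb, against 23.0 kb and 27.7 kb for these classes, 7.91 kb for the unmethylated sparse windows and 17.5 kb for all windows. Within 2 kb of a gene start lay 5.07% of members and 37.4% of unmethylated sparse windows. Being inside a gene did not set them apart to the same degree, since 64.8% of members overlapped a gene span, against 67.8% of unmethylated sparse windows and 67.3% of all. These shares are a description over windows, which are not independent, and no exon or intron annotation was used.

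The change with distance was steep. Of the sparse windows whose centre was less than 0.5 kb from a gene start, 17.9% were members and 74.6% were at 20% or less. At 1 to 2 kb, 43.5% were members, at 2 to 5 kb 69.8%, and at 10 to 50 kb 72.6%. Beyond 100 kb the share was 66.3%, and windows between 20 and 80% made up 20.4%. Among members the median level was 97.5% within 0.5 kb and 97.9% at 10 to 50 kb. The rule admits only 80% or more in the same mice, which narrows any such difference. The share of windows that were members was similar on all chromosomes, from 50.6 to 55.0%.

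**Figure D2:**
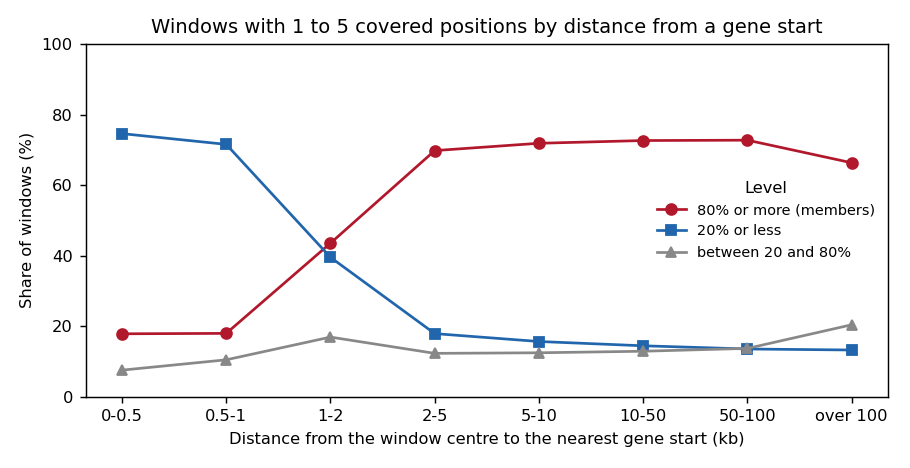
Share of windows with 1 to 5 covered positions (y axis, %) that were members, at 20% or less, or in between, by distance from the window centre to the nearest RefSeq gene start (x axis, kb). Members rise from 17.9% within 0.5 kb to 72.6% at 10 to 50 kb; chromosome 18 is left out, where the promoter table has no entry.

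Gene starts inside members had CpG-poor promoters. The 693 promoters in member windows had a median of 4 CpGs in 300 bases, against 16 in unmethylated sparse windows and 25 in unmethylated windows with 6 or more positions. The median was 6 in sparse windows between 20 and 80%, 7 in methylated windows with 6 or more positions and 7 over all 32851 promoters of the table. The ratio of observed to expected CpGs was 0.245 in members, 0.645 in unmethylated sparse windows, 0.823 in unmethylated windows with 6 or more positions and 0.384 over all. Only 4 promoters of members (0.577%) had 15 or more CpGs, and Gm52172 above is among them, against 1741 (55.4%) of the promoters in unmethylated sparse windows. A CCGG site occurred in 57.7% of member promoters, 80.5% of those in unmethylated sparse windows and 52.8% of all promoters.

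Of 11072 autosomal genes with a covered start, 640 (5.78%) had a start in a member. These were 272 of 8994 protein-coding genes (3.02%) and 368 of 2078 lncRNA genes (17.7%). Another start of the same gene was in an unmethylated window in 67 of the 640. Slc20a1, a phosphate transporter gene, is an example, with a member at 99.0% ± 1.55 and another start in an unmethylated window.

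Most gene starts were outside the members, in these lists as over all genes, of which 5.78% had a start in a member (3.02% of protein-coding genes). At either share, lists as short as those of histone and germline genes can hold 0 without standing out. Spermatid protein genes had 2 of 16 (12.5%). No start of 49 measured ribosomal protein genes, 18 histone genes and 22 germline genes, such as the RNA-binding protein gene Dazl and the helicase gene Ddx4, was in a member. The start windows of Dazl and Ddx4 were at 1.14% and 2.51% in the offspring, and those of the meiosis gene Sycp1 and the spermatid gene Tnp1 at 6.02% and 4.30%. Of 210 zinc finger genes 3 had a start in a member (Zfp982 at 92.7% ± 4.92, Zfp652 at 97.6% ± 3.11 and Zfp385b at 94.8% ± 7.47), of 16 Hox genes 1, of 15 cytochrome P450 genes 1 (Cyp2w1 at 99.4% ± 1.63) and of 171 solute carriers 8, among them Slc25a25 at 97.3% ± 3.46, Slc41a3 at 96.2% ± 6.83 and Slc6a9 at 98.4% ± 2.50. Hoxd4, a transcription factor of axial patterning, was at 96.8% ± 3.86 over 5 positions at this start. Zfp982 and Slc25a25, like Slc20a1, also had another start in an unmethylated window.

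The counts of the other lists were small. The odorant receptor genes had 4 members of 11 measured (Olfr1396 at 97.2% ± 4.56, Olfr30 at 98.0% ± 6.26, Olfr655 at 92.9% ± 11.2 and Olfr329 at 100% in every mouse) out of 944 in the promoter table, and the list of keratins and keratin-associated proteins, structural proteins of skin and hair, had 5 of 15, among them Krt39 at 98.1% ± 2.60, Krtap16-1 at 99.0% ± 1.81, Krtdap (a keratinocyte differentiation gene that the symbol rule took in, and no keratin) at 95.1% ± 6.72 and Krt76 at 96.6% ± 5.82. C-type lectins had 2 of 7 (Clec18a at 97.0% ± 7.21 and Clec1b at 97.9% ± 5.12), serpins 1 of 6 (Serpinb9c at 88.6% ± 9.98), and potassium channels 5 of 47, with Kcne4 at 92.3% ± 5.54, Kcnj12 at 98.3% ± 2.14, Kcnj15 at 93.1% ± 4.28 and Kcnj13 at 97.0% ± 3.63. Of 16 spermatid protein genes 2 were members, Spata20 at 97.7% ± 2.60 and Spata46 at 96.5% ± 6.78, and the other 14 were at 20% or less at a start. No vomeronasal receptor gene was a member (1 measured), and no defensin, haemoglobin or casein gene start was covered. These shares are to be read beside the 5.78% of all genes and the 3.02% of protein-coding genes.

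Long genes held many members in their bodies. The protein-coding genes with the most members, chosen after their counts were seen, were Wwox, a gene at a fragile site of the genome, with 65 members among 84 windows, Cdh13, which encodes T-cadherin, with 61 of 79, and Nav2, a neuron navigator gene, with 54 of 64. In Wwox the mean over its members was 97.5%, from 96.1% in the lowest to 98.5% in the highest offspring mouse.

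The question of the study was whether transplantation left a trace in sperm methylation, first in the transplanted mice and then in their offspring. Among the offspring the level of the members varied little. The mean over all 55933 members lay between 96.42 and 96.76% in the 20 mice. It was 96.74, 96.66, 96.61, 96.69 and 96.60% in the control F1 mice and 96.67, 96.59, 96.46, 96.63 and 96.53% in the SSCT F1 mice. The SSCT F2/M mice had 96.76, 96.75, 96.69, 96.59 and 96.67%, the SSCT F2/P mice 96.51, 96.49, 96.42, 96.67 and 96.65%. The groups overlapped in every comparison.

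SSCT F1 differed from control F1 by -0.0839 points (exact permutation test, two-sided, p = 0.119), both SSCT F2 lines together by -0.0384 points (exact p = 0.492), SSCT F2/M by 0.0339 points (exact p = 0.373) and SSCT F2/P by -0.111 points (exact p = 0.0873). The Benjamini-Hochberg values over the 5 comparisons with controls, F0 included, were 0.198, 0.492, 0.466 and 0.198. The comparisons share the control F1 mice, and 5 mice against 5 cannot give less than 0.00794. Under the names of the clustering figure SSCT F1 differed from control F1 by -0.145 points (exact p = 0.0397) and SSCT F2/M by -0.0339 points, so that the direction for SSCT F2/M depends on the naming. The number of members below 50% was 49 to 189 in an offspring mouse, and 56.7 to 67.5% of members had every read methylated.

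**Figure D3:**
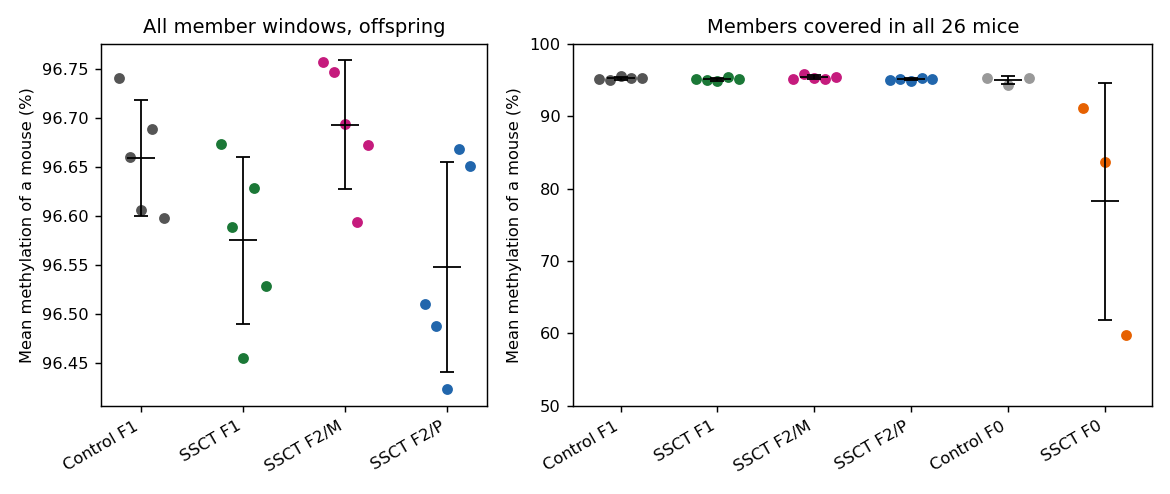
Mean methylation of member windows in each mouse (y axis, %; points), by group (x axis), with the group mean and SD as black bars; the left panel shows the 20 offspring over all 55933 members, the right panel all 26 mice over the 1028 members covered in every library. The 3 SSCT F0 mice lie at 91.2, 83.8 and 59.8% in the right panel, below the other 23.

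In the F0 mice, which the rule did not use, the members were lower and more divided after transplantation. Coverage differed first. At least 10 reads at every position of the window were found for 53853, 53136 and 54730 members in the control F0 mice, but for 46733, 17515 and 1079 members in SSCT F0 replicates 1, 2 and 3. The mean over these members was 96.8, 96.1 and 96.5% in control F0 and 95.2, 89.3 and 61.5% in SSCT F0. Over the same windows the offspring were at 96.6, 96.3 and 95.3% on average.

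The lower means went with windows at or near 0, most of all in replicate 3. In SSCT F0 replicate 3, 34.01% of its members were at 10% or less and 56.7% at 90% or more. In replicate 2 the shares were 5.61% and 81.4%, and in replicate 1 0.199% and 84.9%, against at most 0.0433% at 10% or less in control F0. Below 50% lay 647 members in replicate 1, 1527 in replicate 2 and 404 in replicate 3, and 9.58%, 56.0% and 71.8% of these had no methylated read at all. In control F0, 86, 187 and 93 members were below 50%. Windows with 1 position were below 50% more often than windows with more positions, 10.2 against 6.99% in replicate 2 and 40.2 against 31.9% in replicate 3.

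**Figure D4:**
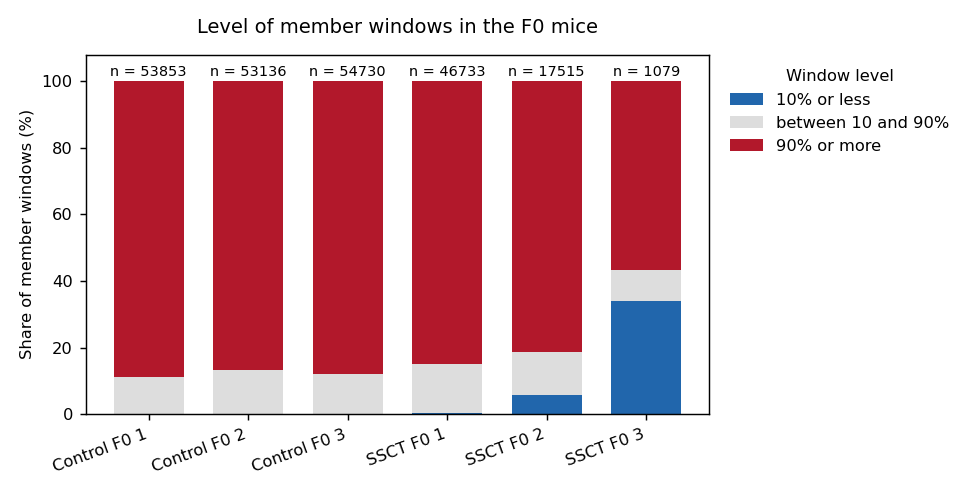
Share of member windows (y axis, %) at 10% or less, between 10 and 90% and at 90% or more in each F0 mouse (x axis), over the members with at least 10 reads at every position in that mouse (n above each bar). The share at 10% or less reaches 34.01% in SSCT F0 replicate 3 and is not visible in the control F0 mice.

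Other measures moved with these levels. The number of positions with any read was 1977100, 1123580 and 305964 in SSCT F0 replicates 1, 2 and 3, against 2000147 to 2107992 in control F0, while the reads at them numbered 53276283, 57686210 and 75182336, against 51386036 to 87707577. The median covered member of replicate 3 therefore had 492 reads, against 57 and 70 in replicates 1 and 2 and 75 to 94 in control F0. Of the sparse windows at 20% or less in the offspring, 1.78, 2.00 and 2.47% were above 50% in SSCT F0 and 0.197 to 0.385% in control F0. Their mean was 6.91, 5.41 and 3.84% in SSCT F0 replicates 1, 2 and 3, against 5.57, 5.44 and 4.93% in the offspring over the same windows, so that it was higher in replicate 1 alone. Of 5 imprinted gene starts that are unmethylated in sperm and methylated on a single allele in somatic cells, only that of Peg3 was covered. Its window was at 1.52% in the offspring and at 0.478, 0.780 and 0% (291 reads, interval up to 1.30%) in control F0, but at 3.65% (95% Wilson interval 2.18 to 6.03), 11.7% (8.40 to 16.2) and 49.6% (47.1 to 52.2) in SSCT F0 replicates 1, 2 and 3. The starts of sperm genes did not all move with Peg3. In replicate 3, Ddx4 had 0 of 2398 reads methylated (interval up to 0.160%) and Tnp1 0 of 1925 (up to 0.199%), while Dazl and Sycp1 were not covered. In replicate 2, Tnp1 was at 17.7% and Sycp1 at 11.9%, against at most 5.91% and 3.46% in control F0, while Ddx4 had 0 of 247 reads methylated (up to 1.53%) and Dazl was at 3.62%. In replicate 1 the 4 starts were at 0 to 7.76%. The part of the low DNA input, of the number of molecules read and of cells other than sperm in the lower level of the members was not tested.

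A common set of windows was needed to compare the F0 groups. Positions with at least 10 reads in all 26 libraries left 1028 members among 13540 windows. Over these members the SSCT F0 mice were at 91.2, 83.8 and 59.8%, a mean of 78.3% ± 16.4 (SD, n = 3), and the control F0 mice at 95.4, 94.4 and 95.3%, a mean of 94.998% ± 0.550. All 3 SSCT F0 mice were lower. The difference of 16.7 points had an exact permutation p = 0.1, two-sided, which is the smallest that 3 mice against 3 can give (Benjamini-Hochberg 0.198). Members below 50% made up 4.28, 13.3 and 38.9% in SSCT F0 and 0.195, 0.292 and 0.0973% in control F0. The difference over these members was -7.53 points when SSCT F0 replicate 3 was left out.

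DMRs were then called, that is, windows with a read-weighted difference above 25 percentage points at q under 0.01 in a logistic model of methylated and unmethylated reads. Of the 1028 members 405 (39.4%) were DMRs between SSCT F0 and control F0, against 10.1% of all 13540 windows, and all 405 were hypomethylated in SSCT F0, against 7.33% of all windows. A member near 100% can fall by that much but can hardly rise by it, which the rule fixes. SSCT F0 and control F0 had separate ranges in 146 members (14.2%), against 11.8% of all windows, and in 107 of the 405 DMRs. Of the 146, SSCT F0 lay below control F0 in 110 and above it in 36. The logistic model ignores how far mice of a group differ. An F test scaled by that spread called 0 members and 0 of all windows. At an unadjusted p under 0.05 it gave 161 members, a count without a share over all windows beside it.

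SSCT F0 replicate 3 carried much of this count. Without it 154 of the 1028 members (14.98%) were DMRs, 152 of them hypomethylated, against 5.82% of all 13540 windows. Leaving it out also allowed the positions covered in the other 25 libraries, which gave 22402 members, 94.8 and 89.8% in SSCT F0 replicates 1 and 2 and 96.5, 96.0 and 96.3% in the control F0 mice (difference -3.97 points, exact p = 0.2, the smallest that 2 against 3 can give). On this set 2114 members (9.44%) were DMRs, 2050 hypomethylated and 64 hypermethylated, against 8.96% of all 63149 windows, a share near the background. The F test called 0 members, with 1560 at an unadjusted p under 0.05, again without a share over all windows. Below 50% lay 376 members in replicate 1 and 1841 in replicate 2, of which 215 were the same windows, 57.2% of the first list and 11.7% of the second.

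Of the 107 F0 DMRs without overlap, the 3 with the largest difference are described. A window on chromosome 9 (15542001 to 15543000), in the span of Smco4 and of the lncRNA gene Gm46152, was at 100% in all 3 control F0 mice. It was at 50.0% of 14 reads in SSCT F0 replicate 1, at 0 of 14 reads in replicate 2 and at 0 of 229 reads in replicate 3, counts of 0 that allow up to 21.4% and 1.31%. A window in Dlgap2, a gene of the postsynaptic scaffold, on chromosome 8 (14340001 to 14341000) was at 100, 100 and 95.2% in control F0. It was at 19.05%, 32.4% and 0 of 1276 reads in SSCT F0, the last allowing up to 0.235%. An intergenic window on chromosome 5 (69467001 to 69468000), 125 kb from the start of Gnpda2, was at 100% in each control F0 mouse and at 87.7%, 0 of 57 reads and 0 of 945 reads in SSCT F0, which allows up to 5.26% and 0.317%.

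In each of these 3 windows the offspring were high, with means of 98.3, 96.6 and 97.6%. The read-weighted differences, -97.3, -95.4 and -95.3 points, weight replicate 3 most, which has the most reads, and the differences between the means of the mice were -83.3, -81.3 and -70.8 points (exact p = 0.1 each, which the choice of windows without overlap fixes). The F test gave q-values of 0.23, 0.158 and 0.235. Intervals and limits of these kinds cover counting error only.

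Member genes of the lists fixed here could be followed in SSCT F0 replicates 1 and 2, over the positions covered in 25 libraries. The start of Kcne4, a potassium channel subunit gene, was at 95.1, 96.8 and 93.7% in control F0, at 100% in replicate 1 and at 0 of 54 reads in replicate 2, which allows up to 5.56%. That of Kcnj15, an inward rectifier channel gene, was at 90.7, 96.7 and 78.6% in control F0 and at 71.1% in replicate 1 and at 0 of 24 reads in replicate 2, which allows up to 12.5%. Olfr655 was at 88.3, 100 and 95.8% in control F0 and at 100% and 0 of 38 reads, which allows up to 7.89%. By contrast Kcnj13, Kcnj12, Krt39, Zfp652 and Olfr1396 were at 100% in both SSCT F0 mice, and Hoxd4 was at 90.8 and 90% against 98.0 to 100% in control F0. Zfp982 was at 91.5 and 100% and Slc25a25 at 92.0 and 100% in replicates 1 and 2. Of the starts at 100%, Kcnj12 rested on 10 and 27 reads and Olfr1396 on 72 and 29, each at 1 position. The values of Kcnj15 and Olfr655 also rested on 1 position, those of Kcne4 on 3. The values at 0 were those of replicate 2.

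In the offspring few members were DMRs. Of 55933 members 15 were DMRs between SSCT F1 and control F1, 11 hypomethylated and 4 hypermethylated, against 0.319% of all 106858 windows, which is a share of members of 0.0268%. For both SSCT F2 lines together the count was 4 (0.00715% against 0.116% of all windows), for SSCT F2/M 17 (0.0304% against 0.251%) and for SSCT F2/P 12 (0.0215% against 0.254%). The rule bears on these shares, because a window whose mean over the 20 mice is 80% or more leaves little room for a group that is 25 points away. Leaving out any 1 mouse gave 26 to 42 DMRs for SSCT F1, 2 to 15 for both SSCT F2 lines, 24 to 33 for SSCT F2/M and 19 to 25 for SSCT F2/P. The balance of directions for SSCT F1 turned when any 1 of control F1 replicates 1 to 4 was left out. It was then 13 hypomethylated and 19 hypermethylated, 14 and 20, 17 and 19, and 13 and 20. Without control F1 replicate 5 it was 15 and 15. Without any 1 SSCT F1 mouse, hypomethylated DMRs stayed in excess. For SSCT F1 replicates 1 to 5 the counts were 26 and 7, 33 and 8, 16 and 10, 36 and 6, and 23 and 11. Under the names of the clustering figure the balance was 8 and 10. Of the 17 SSCT F2/M DMRs 9 were hypomethylated, and of the 12 SSCT F2/P DMRs 6. The F test called 0 members and 0 of all windows in each of the 4 comparisons. Between 5492 and 5878 members had an unadjusted p under 0.05 in it. No share over all windows stands beside these counts, so they are not a result about the members.

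Groups without overlap are limited by the rule too, because most members are at 100% in most mice and tied mice overlap. Control F1 and SSCT F1 did not overlap in 145 members (0.259%), against 0.441% of all windows, and the pooled SSCT F2 mice and control F1 in 11 (0.0197%), against 0.0477%. For SSCT F2/M the count was 142 (0.254%, against 0.471%) and for SSCT F2/P 157 (0.281%, against 0.519%). Nearly all DMRs were members with 1 position. With windows of 2 to 5 positions alone, 0 DMRs were left for SSCT F1, the pooled SSCT F2 mice and SSCT F2/P, and 2 for SSCT F2/M.

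The DMRs with the largest differences and no overlap show how broad the spread was. A window 6.54 kb from the start of D630013N20Rik on chromosome 10 (70662001 to 70663000) was at 100, 100, 98.4, 100 and 100% in control F1 and at 50.0, 70.0, 62.2, 85.9 and 60.5% in SSCT F1, with only 10 reads in each of the first 2 SSCT F1 mice. SSCT F2/M lay at 71.01 to 100% and SSCT F2/P at 50.0 to 100%. The read-weighted difference was -29.2 points (F test, q = 0.499).

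The next window, on chromosome 12 (49350001 to 49351000) and 39.2 kb from 3110039M20Rik, was at 83.9, 100, 90.2, 100 and 80.6% in control F1 and at 79.2, 62.1, 57.1, 71.4 and 61.8% in SSCT F1. Another, in the gene body of Rufy2 on chromosome 10 (62999001 to 63000000), was at 100, 97.8, 100, 79.7 and 100% in control F1 and at 66.7, 68.8, 77.3, 60.0 and 68.0% in SSCT F1. In both, SSCT F2/M and SSCT F2/P mice reached 100%. No DMR of the pooled SSCT F2 mice was free of overlap.

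For SSCT F2/M a window near Gm34335 on chromosome 6 (101585001 to 101586000) was at 100, 100, 100, 91.2 and 100% in control F1 and at 83.9, 33.3, 30.6, 80.6 and 72.5% in SSCT F2/M. A window 1.63 kb from the start of Creb3l3, a transcription factor gene of liver and gut, on chromosome 10 (81100001 to 81101000) was higher in SSCT F2/M, at 100, 90.4, 100, 100 and 77.1%, than in control F1, at 69.2, 54.2, 73.1, 68.8 and 61.1%. A window near Gm38630 on chromosome 2 (158985001 to 158986000) was at 100, 100, 87.0, 100 and 100% in SSCT F2/M and at 67.2, 83.0, 36.4, 50.0 and 83.0% in control F1. In these 3 windows the SSCT F1 and SSCT F2/P mice overlapped both groups.

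For SSCT F2/P the windows were in Bnc2, a zinc finger gene, on chromosome 4 (84406001 to 84407000), at 68.1% ± 14.7 (46.2 to 81.4%) against 97.1% ± 6.39 (85.7 to 100%) in control F1, and in Tpst1, a gene of protein tyrosine sulfation, on chromosome 5 (130089001 to 130090000), at 71.4% ± 15.3 (46.4 to 86.5%) against 96.9% ± 5.41 (87.5 to 100%). All 8 windows rested on 1 position and on 10 to 138 reads per mouse of the groups compared. The exact permutation test over 5 mice against 5 gave p = 0.00794, its smallest value, for each of them, which the choice of windows without overlap fixes, and the F test gave q-values of 0.499 to 0.524.

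**Figure D5:**
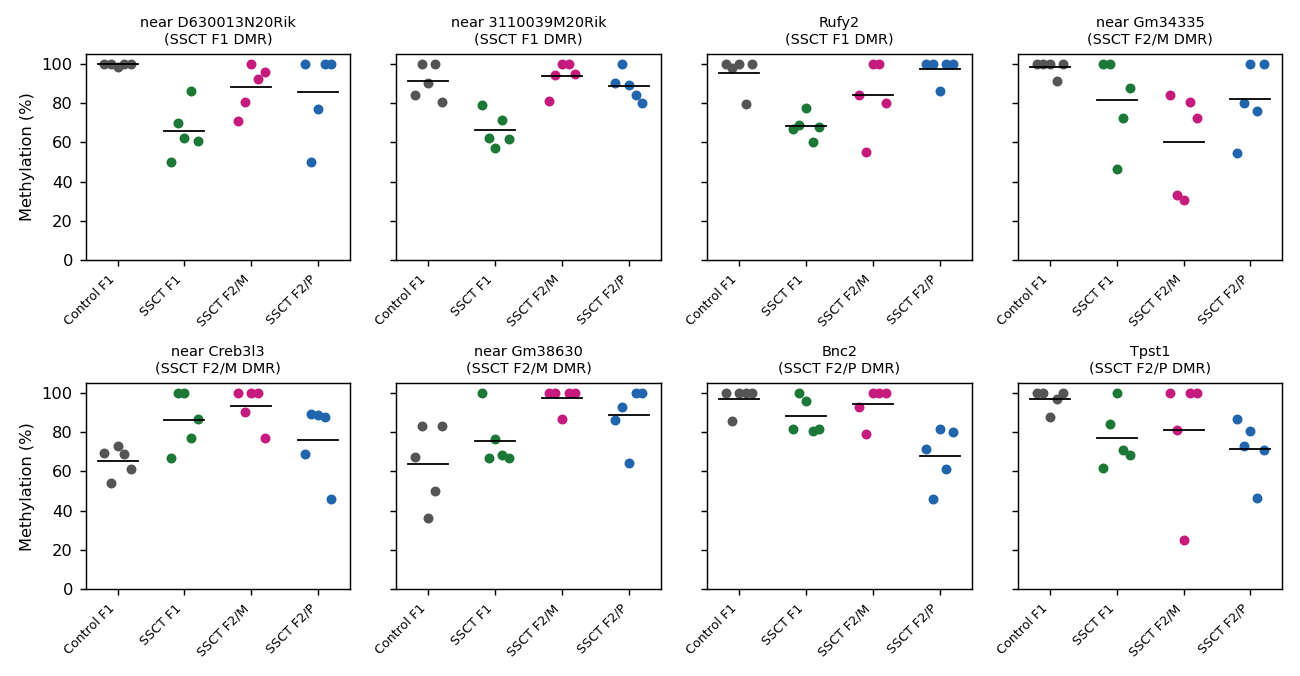
Methylation of the 8 named offspring windows in each mouse (y axis, %; points) by group (x axis), with group means as lines; titles give the gene, or the nearest gene start, and the comparison in which the window was a DMR. In the window near D630013N20Rik control F1 lies at 98.4 to 100% and SSCT F1 at 50.0 to 85.9%, while SSCT F2/P spans 50.0 to 100% and SSCT F2/M 71.01 to 100%.

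The named offspring windows depended on the group names. Under the names of the clustering figure none of the 3 SSCT F1 windows and neither SSCT F2/P window remained a DMR, and the 3 SSCT F2/M windows remained DMRs in the opposite direction, because control F1 and SSCT F2/M change places. The member counts of DMRs changed less, with 18 for SSCT F1, 9 for the pooled SSCT F2 mice, 17 for SSCT F2/M and 16 for SSCT F2/P under that naming.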

How the data were processed

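Sperm DNA of 26 mice was measured by RRBS. The authors deposited, for each library and CpG position, the methylated fraction and the coverage, that is, the read counts behind it. Per the submitters' processing notes, Trim Galore 0.4.1, FastQC, Bismark 0.20.0 and methylKit 1.7.0 were used, with build GRCm38 (mm10). Fraction times coverage gave methylated counts, and was not within 0.01 reads of a whole number at 57 positions. Reads were not separated from their PCR copies, so intervals (Wilson, 95%) and the limits of a count of 0 (3 counts) cover counting error only.

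Positions with at least 10 reads in the libraries compared were summed in windows of 1000 bp. DMRs were windows with a read-weighted difference above 25 percentage points and a Benjamini-Hochberg q under 0.01 over all windows, from a likelihood ratio test of a logistic model. The F test divides by the dispersion between mice. Means were compared by exact permutation tests, two-sided. The members and gene lists were chosen with earlier results of these data known. Windows were named as the 3 DMRs without overlap and with the largest difference per comparison, the 3 with the largest SD, the 2 on each side of the limit, and up to 4 genes per list by reads. Promoters were those with the most covered positions. Replicate numbers did not pair the mice (correlations of deviations -0.0144 to 0.0287). Python 3.11.15, NumPy 2.4.6, pandas 2.3.3, SciPy 1.17.1 and matplotlib 3.10.9 were used. The window test was checked on simulated reads without spread between mice, whereas mice differed here. Chromosome 18 has no promoter entry and was left out of counts at gene starts. Alternatives were coverage, position, level and difference limits, the F test, the replicate block, other group names and leaving out each mouse.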

Additional observations from a re-analysis of the deposited data

Results flagged for a closer look

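In 6 of the 28 groups of 5 mice tested, the lowest mouse stood apart from the other 4. All 6 lay at the named windows, which supplied only part of the 28 groups, so the share there was higher. None of the other groups tested had such a mouse. Chance gives about 1 in 20 for groups not picked by their values, a rate that does not apply here, since the windows were chosen for groups without overlap and any departure stands apart from 4 mice tied at 100%. These were control F1 replicate 3 at 98.4% near D630013N20Rik, control F1 replicate 4 at 79.7% in Rufy2 and at 91.2% near Gm34335, SSCT F2/M replicate 3 at 87.0% near Gm38630, control F1 replicate 2 at 85.7% in Bnc2 and control F1 replicate 3 at 87.5% in Tpst1. In all but Rufy2 and Tpst1 the other 4 mice were at 100%, and in those they were at 97.0% or more.

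The mean over members differed between the lines derived from SSCT F1 mothers and fathers, SSCT F2/M lying 0.145 points above SSCT F2/P (exact permutation test, two-sided, p = 0.0397). The Benjamini-Hochberg value over 7 contrasts was 0.208. Under the names of the clustering figure the same libraries are control F1 and SSCT F1.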

How the results depend on the processing

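The DMR counts depended on the thresholds. With 20 reads in every library they were 243 (F0), 4 (SSCT F1), 0 (both SSCT F2 lines), 4 (SSCT F2/M) and 2 (SSCT F2/P), and with 2 to 5 positions 241, 0, 0, 2 and 0. With a level of 90% or more the offspring counts were 2, 0, 2 and 1, and above 10 points 1422, 847, 1304 and 1348. The offspring counts rest on 25772 members with 20 reads, 31885 with 2 to 5 positions, 51679 at 90% or more and 55933 above 10 points. The F0 counts rest on the part of them covered in all 26 libraries. No share over all windows stands beside the counts at these settings, so they are not a result about the members. The F test gave 0 in all 5. Both other namings gave 9 for the SSCT F2 lines. The means of SSCT F1 and SSCT F2/P passed 0.05 with 90% or more (-0.0780, exact p = 0.0397, and -0.0899, exact p = 0.0476). Both namings gave -0.145 (exact p = 0.0397) for SSCT F1, and the figure's gave -0.118 (exact p = 0.0476) for SSCT F2/P. SSCT F2/M reversed to -0.0339 (exact p = 0.373) under the figure's names and to -0.118 (exact p = 0.0476) with both F2 lines exchanged.

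Leaving out 1 mouse at a time gave 154 to 427 DMRs (F0), 26 to 42 (SSCT F1), 2 to 15 (SSCT F2), 24 to 33 (SSCT F2/M) and 19 to 25 (SSCT F2/P), and mean differences of -23.2 to -7.53, -0.109 to -0.0541, -0.0536 to -0.0165, 0.0179 to 0.0586 and -0.141 to -0.0795 points. The cause of the larger offspring counts was not tested. The lowest F0 count and smallest F0 difference were without SSCT F0 replicate 3, and over the positions covered in the other 25 libraries there were then 2114. Leaving out SSCT F2/P replicate 4 gave -0.141 (exact p = 0.0476). Members covered in each F0 library by itself, an alternative chosen after seeing the data, gave -14.5 points (exact p = 0.1).

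With the replicate block the DMR counts stayed 405, 15, 4, 17 and 12, and the means had exact p = 0.25, 0.0625, 0.3125, 0.4375 and 0.1875. With 3 or 5 replicate numbers this exact test cannot give less than 0.25 or 0.0625. No mean could therefore pass 0.05 in it, and no conclusion about the means is drawn from the block. Reversed windows under the figure's names and the exchanged names were D630013N20Rik (5.66 in both), Rufy2 (12.2 in both), Gm34335 (36.8 and 19.1), Creb3l3 (-30.3 and -9.28) and Gm38630 (-29.0 and -23.6), and under the exchanged names Bnc2 (4.45) and Tpst1 (9.39). The exchange of group names itself makes these reversals, with equal size and opposite sign where control F1 and SSCT F2/M change places. Without SSCT F1 replicate 3, 3110039M20Rik fell to -24.6 points, without SSCT F2/P replicate 2 Bnc2 to -21.9, and without any of 5 mice Tpst1 to between -24.8 and -19.3. The median depth of 46 reads per mouse limits the precision of windows with 1 position.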

Other observations

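The sex chromosomes were outside the rule. On X, 319 of 759 windows with 1 to 5 positions (42.0%) were at 80% or more, with a median of 96.7%, and on Y 24 of 58 (41.4%), with a median of 89.9%. The starts of Meg3 and Rasgrf1, imprinted genes whose paternally methylated control regions lie upstream of the gene, were at 4.56% and 0.919% in the offspring.

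Members below 50% in SSCT F0 replicate 1 had a median offspring level of 89.3%, against 97.8% for all members covered in 25 libraries, and those below 50% in replicate 2 had 96.4%.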
